A study of Mus musculus with 12 samples.

Results

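Basement membrane genes were followed in mouse embryonic fibroblasts whose β1 integrin, a receptor subunit for laminin and collagen, was either wild type (WT) or carried the YYFF mutation. The 10 genes were Col4a1, Col4a2, Col4a5, Col18a1, Lamb1, Lamb3, Lamc1, Nid1, Nid2 and Agrn, and they were found by the gene symbols of the array platform, among 16590 genes with a named probe. They had 12 probes of 25697. Of the 10 genes, 9 had a probe above background (detection p under 0.05) on at least 2 of 12 arrays and were tested, among 8891 tested genes in all. The exception was Lamb1, whose only probe was above background on 0 of 12 arrays.

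A basement membrane is a thin sheet of matrix in which a network of laminin trimers and a network of type IV collagen trimers lie on each other, joined by nidogens and by heparan sulfate proteoglycans such as agrin and perlecan. Cells hold on to it through integrins and dystroglycan, and laminin is the component that assembles first at the cell surface. Fibroblasts secrete many of these proteins, often without forming a complete basement membrane of their own.

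The cells were female C57BL/6 fibroblasts immortalized with SV-40 large T, and the stage labels count upward from E13.5 over the samples, so no age comparison was made. WT and YYFF were each represented by 1 clone, so genotype and clone cannot be told apart. In YYFF the tyrosines of both conserved motifs in the cytoplasmic tail of β1 integrin are replaced by phenylalanine, and per the labels these cells cannot complete cytokinesis where only β1 integrin can hold the matrix. Cells of both clones were kept overnight without serum on laminin, then given normal medium, either 4 times (L4) or 8 times (L8), and were afterwards grown on plastic. L0 cells had no laminin plating. Passages on laminin and time in culture rise together and cannot be told apart, and the labels give no chromosome counts for the groups. The series names aneuploidy as its subject.

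Each of the 6 groups had 2 arrays, and 40.4% to 45.8% of probes were above background on an array. Replicate arrays correlated at 0.987 to 0.994 over the 8891 tested genes. Nothing in the labels says that replicates were separate cultures, and the spread between 2 arrays behind the p-values may be technical. Itgb1, the gene that carries the mutation, was above background on all 12 arrays, at 9.07 ± 0.05 in WT L0 and 9.05 ± 0.21 in YYFF L0 (log2 signal, SD, n = 2), and its probe cannot show the mutation. Of 10 fibroblast markers with a probe, 6 to 8 were above background on both arrays of each group, while 7 of 9 endothelial markers and 7 of 8 macrophage or other blood cell markers were above background on 0 of 12 arrays. In cultures, fewer cells of a kind and less RNA per cell cannot be told apart. Levels below are normalized log2 signals given in the order replicate 1, replicate 2. Changes are log2 differences ± SE with Benjamini-Hochberg adjusted p from limma over the 8891 genes, and a change is called where that p is under 0.05. A level is specific to its probe, so no gene's level is set against another's.

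The collagens of the network and the nidogen Nid1 were higher in the YYFF clone at every number of passages, while Col18a1 and Agrn, after laminin passages, were lower there. Col18a1, highest in WT cells, lay at or near background in YYFF cells at L4 and L8. Nid2 and Agrn fell after 8 laminin passages in both clones, and further in YYFF. Col4a5 and Lamb3 were seen mainly or only in the YYFF clone. These patterns are given gene by gene below.

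**Figure D1:**
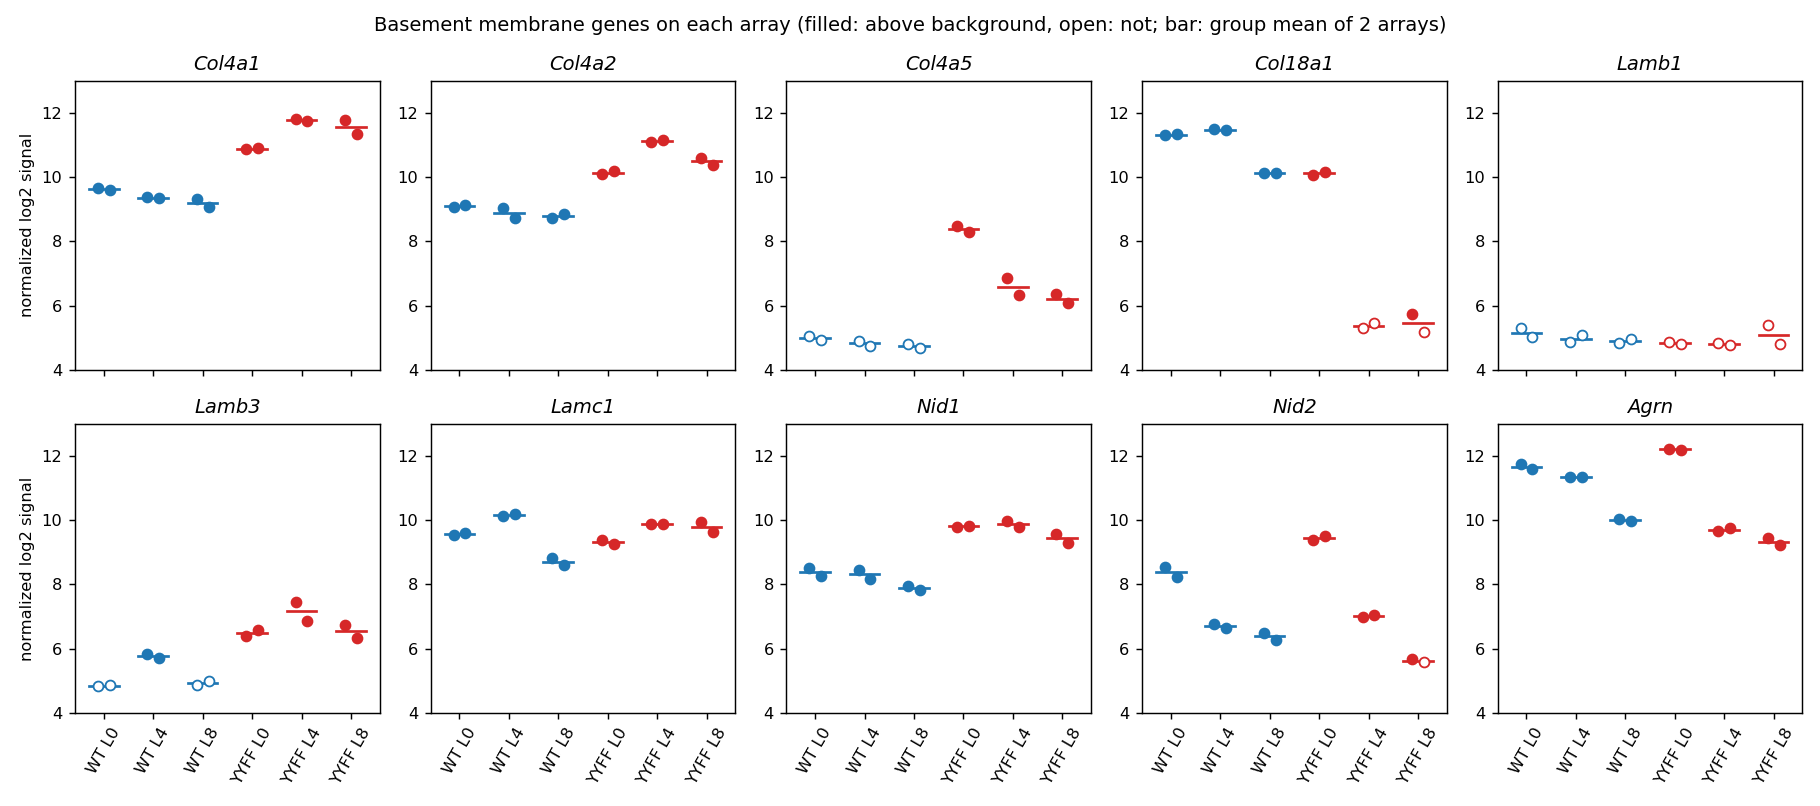
Normalized log2 signal (vertical axis) of the 10 basement membrane genes on each of the 12 arrays, grouped by clone and number of laminin passages (horizontal axis), with filled points above background, open points not, and bars at the mean of 2 arrays. Col18a1 drops from 10.08 and 10.17 in YYFF L0 to 5.29 and 5.45 in YYFF L4, Col4a5 is open in all WT groups, and Lamb1 is open everywhere.

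Col4a1 and Col4a2 encode the chains of the common type IV collagen trimer, in which Col4a1 contributes a pair of chains and Col4a2 the remaining one. The genes lie head to head and are transcribed away from each other. Their promoter windows are shown because the genes share this stretch of DNA and had alike patterns over the arrays. The windows run from 250 bases before to 50 after a transcript start in RefSeq (build GRCm38.p6, chr8:11312777-11313076 on the minus strand for Col4a1 and chr8:11312555-11312854 on the plus strand for Col4a2). Each is written 5′ to 3′ on its gene's own strand, and capitals mark the 78 bases common to both, chr8:11312777-11312854, which read as reverse complements of each other.
Col4a1: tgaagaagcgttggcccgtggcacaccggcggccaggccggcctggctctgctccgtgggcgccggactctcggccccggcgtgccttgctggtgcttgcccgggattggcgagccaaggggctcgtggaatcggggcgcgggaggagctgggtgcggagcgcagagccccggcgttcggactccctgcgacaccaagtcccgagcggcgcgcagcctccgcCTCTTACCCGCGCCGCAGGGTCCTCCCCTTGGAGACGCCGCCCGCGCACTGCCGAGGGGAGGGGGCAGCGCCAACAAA
Col4a2: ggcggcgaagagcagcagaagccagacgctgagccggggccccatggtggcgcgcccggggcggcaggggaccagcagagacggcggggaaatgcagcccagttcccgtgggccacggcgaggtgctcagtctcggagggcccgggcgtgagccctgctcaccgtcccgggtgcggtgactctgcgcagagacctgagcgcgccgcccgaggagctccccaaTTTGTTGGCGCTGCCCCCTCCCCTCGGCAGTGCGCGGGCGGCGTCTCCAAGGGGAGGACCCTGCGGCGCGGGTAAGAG
Of the 10 genes, 8 had a RefSeq window.

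Col4a1 stood at 9.66 and 9.61 in WT L0, 9.37 and 9.36 in WT L4, and 9.32 and 9.08 in WT L8. In YYFF it stood at 10.88 and 10.90 at L0, 11.80 and 11.74 at L4, and 11.78 and 11.36 at L8. Every YYFF array was above every WT array, and within YYFF the L4 and L8 arrays overlapped each other above L0. In YYFF cells Col4a1 rose by 0.88 ± 0.14 at L4 (limma, adjusted p = 0.00149) and by 0.68 ± 0.14 at L8 (adjusted p = 0.00552). In WT cells its L4 change was -0.27 ± 0.14 (adjusted p = 0.248), and at L8 it fell by 0.44 (adjusted p = 0.0408). That WT call was lost in 9 of the 12 fits that left out 1 array (limma, adjusted p 0.0535 to 0.226), namely all but those without WT L8 replicate 1, YYFF L8 replicate 1 or YYFF L8 replicate 2. The 2 clones' changes differed by 1.15 ± 0.20 at L4 (limma, adjusted p = 0.00322) and by 1.11 ± 0.20 at L8 (adjusted p = 0.0031).

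Col4a2 stood at 9.09 and 9.15 in WT L0, 9.04 and 8.74 in WT L4, and 8.72 and 8.85 in WT L8. Its YYFF levels were 10.09 and 10.19 at L0, 11.08 and 11.16 at L4, and 10.61 and 10.38 at L8. As for Col4a1, no YYFF array overlapped a WT array and the highest pair was YYFF L4. Col4a2 rose by 0.98 ± 0.13 in YYFF L4 (limma, adjusted p = 0.000447), and its L8 change was 0.36 ± 0.13 (adjusted p = 0.058), which passed in 8 of its refits, the authors' values among them. In WT its changes were -0.23 ± 0.13 at L4 (limma, adjusted p = 0.288) and -0.34 ± 0.13 at L8 (adjusted p = 0.0735). The YYFF clone was 2.03-fold above WT at L0, 4.70-fold at L4 (limma, adjusted p = 2.16e-06) and 3.29-fold at L8, and Col4a1 was 2.38-fold, 5.30-fold and 5.15-fold above (adjusted p = 0.000257 at L0, 2.49e-06 at L4). The clone difference in the L8 change of Col4a2, 0.69 ± 0.18 (limma, adjusted p = 0.0193), was lost without WT L0 replicate 2, WT L8 replicate 1, YYFF L0 replicate 1 or YYFF L8 replicate 1 (adjusted p 0.0534 to 0.0685).

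Col4a5 encodes a chain of the other type IV collagen network, found in kidney, lung and inner ear, and lies on the X chromosome. Its probe was not above background on any of the 6 WT arrays, where it read between 4.67 and 5.05. In YYFF it was above background on all 6 arrays, at 8.48 and 8.30 in L0, 6.86 and 6.32 in L4, and 6.36 and 6.08 in L8. YYFF L0 was thus the highest group, and YYFF L4 and L8, which overlapped, lay between it and the WT arrays. Against WT, YYFF was at least 7.21-fold higher at L0 (limma, adjusted p = 2.09e-06), at least 1.98-fold at L4 (adjusted p = 7.27e-05) and at least 1.63-fold at L8 (adjusted p = 0.00023). These lower bounds set the YYFF mean against the dimmest signal that counts as above background on the WT arrays, or the probe's own where that was higher. Here and below, an adjusted p beside such a bound is that of the fitted change, not of the bound. The Col4a5 bounds hold for the background correction used. The fitted L0 difference, 3.40, was 2.42 with no background correction and 2.38 with the authors' values. With a larger offset of 50 the L4 and L8 differences were 1.07 and 0.83. Within YYFF Col4a5 fell by 1.80 at L4 (limma, adjusted p = 7.89e-05) and fell by 2.18 at L8 against L0 (adjusted p = 1.98e-05), opposite to Col4a1 in the same cells. Col4a3, Col4a4 and Col4a6, the other type IV chains, had probes that were above background on 0 arrays.

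Col18a1 encodes a basement membrane collagen with heparan sulfate chains, from whose end endostatin is cut. Its brightest probe read 11.32 and 11.33 in WT L0, 11.50 and 11.46 in WT L4, and 10.14 on both arrays of WT L8. In YYFF it read 10.08 and 10.17 at L0, 5.29 and 5.45 at L4, and 5.74 and 5.19 at L8, where 0 of 2 arrays at L4 and 1 of 2 at L8 were above background. WT L8 and YYFF L0 overlapped at about the same level, WT L0 and L4 lay above both, and the 2 passaged YYFF groups overlapped far below. Col18a1 was at least 22.8-fold lower in YYFF L4 than in YYFF L0 (limma, adjusted p = 1.13e-07), and at L8 it fell by 4.66 (adjusted p = 8.61e-08). In WT its L4 change was 0.15 ± 0.16 (limma, adjusted p = 0.6), and at L8 it fell by 1.19 (adjusted p = 0.000543). YYFF was 2.30-fold below WT at L0 (limma, adjusted p = 0.000647) and at least 58.2-fold below it at L4 (adjusted p = 3.34e-08). The sizes of the falls to background depend on the processing. The fitted change in YYFF L4, -4.76 here, was -3.74 with no background correction and -2.50 with the mean of the gene's detected probes, and that in YYFF L8 was -3.69 and -2.42. The clone difference at L4, -6.11 here, was -5.06 and -3.68 in the same order, so the folds above hold only for the background correction and probe used.

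Another Col18a1 probe was above background on the 4 arrays of WT L0 (5.95 and 6.38) and WT L4 (6.23 and 5.95) and on 0 of the other 8, and the remaining probe on 0 of 12. The former also fell in WT L8, by at least 1.57-fold (limma, all detected probes in 1 fit, adjusted p = 0.00306), and was at least 1.66-fold lower in YYFF L0 than in WT L0 (adjusted p = 0.00214). It cannot show the loss within YYFF, since it was below background already at L0. Its clone difference in the L4 change was -0.16 ± 0.25 (limma, adjusted p = 0.711). In the L8 change it was 0.77 ± 0.25 (adjusted p = 0.0449), opposite in sign to that of the brightest probe. At L8 this probe differed between the clones by -0.31 ± 0.17 (limma, adjusted p = 0.202), with both groups below background. The gene whose pattern over the 12 arrays was most like that of Col18a1 was Pdgfra (Pearson r = 0.993), a growth factor receptor and fibroblast marker. Pdgfra was above background on both arrays of all 3 WT groups and of YYFF L0, and not of YYFF L4 or L8. Of 10 fibroblast markers with a probe, 8 were above background on both arrays of YYFF L0, and 7 in YYFF L4 and YYFF L8. The summed signal of the 10 was 19880 to 20174 in YYFF L0, 22952 to 23398 in L4 and 20507 to 22051 in L8. Such a sum is weighted toward the brightest markers. Of the 8 tested ones, 1 was called higher and 3 lower than in YYFF L0, at L4 and again at L8. Their median changes were -0.38 at L4 and -0.58 at L8, beside 0.02 and 0.03 over all tested genes. Of all tested genes 14.4% were called higher and 17.2% lower at L4, and 17.1% and 19.3% at L8. The 12 arrays fall into 6 groups, so r mostly measures group means.

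Laminins are trimers of an α, a β and a γ chain. Of the α chains on the array, Lama1 was above background on 0 arrays, Lama4 on 1 and Lama2 on 7, and Lama3 and Lama5 had no named probe. Of the β chains, Lamb1 stayed below background on all arrays, with readings from 4.78 to 5.39, and Lamb2 was above background on all 12. An array probe below background gives only a bound on the transcript. Lamc3 was above background on 0 arrays.

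Lamc1, the γ chain of most laminins, was above background on all 12 arrays. It read 9.55 and 9.60 in WT L0, 10.13 and 10.21 in WT L4, and 8.81 and 8.60 in WT L8. In YYFF it read 9.39 and 9.25 at L0, 9.89 and 9.88 at L4, and 9.94 and 9.62 at L8. At L0 the clones differed by -0.26 ± 0.13 and at L4 by -0.28 ± 0.13 (YYFF minus WT, limma, adjusted p = 0.18 and 0.118), while at L8 the WT arrays were the lowest of all 12 and the YYFF arrays stayed among the higher ones. In WT Lamc1 rose by 0.59 ± 0.13 at L4 (limma, adjusted p = 0.0146) and fell by 0.87 at L8 against L0 (adjusted p = 0.000888). In YYFF it rose by 0.57 ± 0.13 at L4 (limma, adjusted p = 0.00887) and by 0.46 ± 0.13 at L8 (adjusted p = 0.0204). With median scaling in place of quantile normalization, the WT L4, YYFF L4 and YYFF L8 rises were not called (limma, adjusted p = 0.179, 0.0863 and 0.225). With the compared arrays alone, those in WT L4 and YYFF L8 were not called either (limma, adjusted p = 0.0597 and 0.0981). The clones' L8 changes differed by 1.34 ± 0.18 (limma, adjusted p = 0.00063), and their L4 changes by -0.03 ± 0.18 (adjusted p = 0.938). The WT L4 rise was lost without WT L0 replicate 1, WT L0 replicate 2 or WT L4 replicate 2 (adjusted p 0.0593 to 0.08), the YYFF L4 rise without YYFF L0 replicate 2 (0.0641), and the YYFF L8 rise without that array or YYFF L8 replicate 1 (0.107 to 0.119).

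Lamb3, the β chain of the epithelial laminin that binds integrin α6β4, read 4.82 and 4.87 in WT L0, 5.82 and 5.72 in WT L4, and 4.88 and 5.01 in WT L8. Only the WT L4 arrays of these were above background. In YYFF all 6 arrays were above it, at 6.40 and 6.57 in L0, 7.45 and 6.87 in L4, and 6.73 and 6.34 in L8. L4 was thus the highest group in either clone, and YYFF lay above WT throughout. YYFF was at least 1.92-fold above WT at L0 (limma, adjusted p = 0.000313), 2.63-fold at L4 (adjusted p = 0.000485) and at least 2.04-fold at L8 (adjusted p = 0.000218). With an offset of 50 the fitted differences at L0 and L8, 1.64 and 1.59 here, were 0.98 and 0.97. Lamb3 was at least 1.17-fold higher in WT L4 than in WT L0 (fitted change 0.92 ± 0.19, limma, adjusted p = 0.0127) and rose by 0.68 ± 0.19 in YYFF L4 (adjusted p = 0.0258). Neither L4 rise held without either array of its own L0 group or without its own L4 replicate 1 (adjusted p 0.0566 to 0.0704 in WT, 0.0617 to 0.168 in YYFF). The summed signal of 9 epithelial markers, of which 4 were above background on 0 arrays, was 337 to 360 in WT L0, 304 to 336 in WT L4 and 343 to 376 in WT L8. In YYFF it was 340 to 454 at L0, 468 to 480 at L4 and 503 to 572 at L8. Their part in the Lamb3 level was not tested.

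Nidogens bridge laminin and type IV collagen. Nid1 read 8.52 and 8.26 in WT L0, 8.45 and 8.18 in WT L4, and 7.96 and 7.82 in WT L8. In YYFF it read 9.80 and 9.82 at L0, 9.98 and 9.78 at L4, and 9.59 and 9.29 at L8. All YYFF arrays lay above all WT arrays by a nearly constant distance. That distance was 1.42 ± 0.15 at L0, 1.57 ± 0.15 at L4 and 1.55 ± 0.15 at L8 (limma, adjusted p = 0.000177, 5.48e-05 and 5.98e-05 in that order). The clone differences in the passage changes were 0.15 ± 0.22 at L4 and 0.13 ± 0.22 at L8 (limma, adjusted p = 0.671 and 0.684). Nid1 fell by 0.50 in WT L8 (limma, adjusted p = 0.0298), a call lost without WT L0 replicate 1, WT L8 replicate 1 or WT L8 replicate 2 (adjusted p 0.0663 to 0.178). Its YYFF L8 change was -0.37 ± 0.15 (adjusted p = 0.0884).

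Nid2 moved otherwise than Nid1. It read 8.54 and 8.24 in WT L0, 6.78 and 6.63 in WT L4, and 6.49 and 6.28 in WT L8. In YYFF it read 9.40 and 9.52 at L0, 6.97 and 7.05 at L4, and 5.67 and 5.57 at L8, where 1 of 2 arrays was above background. The L0 groups were the highest of each clone, and the order of the clones turned from YYFF above WT at L0 to YYFF below WT at L8. In WT Nid2 fell by 1.69 at L4 (limma, adjusted p = 5.43e-05) and fell by 2.00 at L8 (adjusted p = 7.78e-06). In YYFF it fell by 2.45 at L4 (limma, adjusted p = 1.35e-06) and fell by 3.84 at L8 (adjusted p = 8.44e-08). It was also lower in YYFF L8 than in YYFF L4, by 2.62-fold (limma, adjusted p = 0.00172, but 0.0972 with the 4 compared arrays alone). With 1 of 2 L8 arrays above background, these sizes depend on the background correction: with none, the L8 changes were -2.96 against L0 and -0.87 against L4. The L8 change of YYFF minus that of WT was -1.84 ± 0.18 (limma, adjusted p = 9.96e-05). The L4 difference, -0.76 ± 0.18 (limma, adjusted p = 0.0167), was lost without WT L0 replicate 2, WT L4 replicate 1, YYFF L0 replicate 2 or YYFF L4 replicate 1 (adjusted p 0.0523 to 0.0609).

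The genes most like Nid2 over the 12 arrays were Inka2 (r = 0.975) and Tagln (r = 0.968), a smooth muscle marker. The summed signal of 10 smooth muscle or pericyte markers, of which 4 were above background on 0 arrays, was 24949 to 25986 in YYFF L0, 6761 to 6954 in YYFF L4 and 3270 to 3551 in YYFF L8. In WT it was 16216 to 17020 at L0, 15140 to 18022 at L4 and 21867 to 22915 at L8. Tagln is itself one of these markers, and the labels name no cells other than fibroblasts. What links the markers to the Nid2 changes was not tested.

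Agrn encodes agrin, a heparan sulfate proteoglycan that binds laminin and dystroglycan and clusters acetylcholine receptors at the neuromuscular junction. Its promoter window and that of Col18a1 are shown because both genes encode heparan sulfate carrying proteins that fell in the same groups. They come from RefSeq (GRCm38.p6, minus strand, chr4:156197439-156197738 for Agrn and chr10:77166481-77166780 for Col18a1), are written 5′ to 3′, and capitals mark GGGCGG on either strand, so that CCGCCC is the same motif read on the other one.
Agrn: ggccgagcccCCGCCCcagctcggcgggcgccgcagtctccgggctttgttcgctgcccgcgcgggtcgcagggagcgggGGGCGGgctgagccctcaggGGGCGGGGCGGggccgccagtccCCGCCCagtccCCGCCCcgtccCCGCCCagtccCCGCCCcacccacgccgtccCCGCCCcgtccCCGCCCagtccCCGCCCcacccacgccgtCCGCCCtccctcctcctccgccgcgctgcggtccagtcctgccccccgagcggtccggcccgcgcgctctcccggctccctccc
Col18a1: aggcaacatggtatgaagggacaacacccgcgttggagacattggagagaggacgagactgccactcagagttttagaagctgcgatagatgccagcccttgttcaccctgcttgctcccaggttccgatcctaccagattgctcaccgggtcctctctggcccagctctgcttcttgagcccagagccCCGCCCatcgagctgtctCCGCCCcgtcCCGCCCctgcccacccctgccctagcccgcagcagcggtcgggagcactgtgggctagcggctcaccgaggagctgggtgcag
The Agrn window held 12 copies, overlapping ones counted, and the Col18a1 window 3. Of 32851 RefSeq mouse windows of the same length, 35.7% held at least 1 copy and 7 windows held 12 or more. The windows at the other start site of each gene held 2 copies for Agrn and 0 for Col18a1. TGANTCA, searched on both strands, was in 0 of the 11 windows of the 8 genes that had one, and in 7.8% of all windows. These are matches of letters in the windows searched.

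Agrn read 11.75 and 11.60 in WT L0, 11.36 on both arrays of WT L4, and 10.04 and 9.98 in WT L8. In YYFF it read 12.24 and 12.21 at L0, 9.66 and 9.75 at L4, and 9.45 and 9.22 at L8. No group overlapped another, and the large step came between L4 and L8 in WT and between L0 and L4 in YYFF. In WT the L4 change was -0.31 ± 0.11 (limma, adjusted p = 0.0846), and at L8 Agrn fell by 1.66 (adjusted p = 7.57e-06). In YYFF it fell by 2.51 at L4 (limma, adjusted p = 3.59e-07) and fell by 2.88 at L8 (adjusted p = 1.32e-07). The clone difference was -2.20 ± 0.15 for the L4 change (limma, adjusted p = 1.35e-05) and -1.22 ± 0.15 for the L8 change (adjusted p = 0.000363). Agrn was 1.46-fold higher in YYFF at L0 (limma, adjusted p = 0.00554, but 0.344 with median scaling in place of quantile normalization), and then 3.15-fold lower at L4 (adjusted p = 4.19e-06) and 1.60-fold lower at L8 (adjusted p = 0.00107). The gene most like Agrn was Gjb2 (r = 0.993), which encodes a gap junction protein.

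Counted by comparison, 3 of the 9 tested genes changed in WT cells after 4 laminin passages and 6 after 8. Against WT L0, 2 of 9 tested genes rose in WT L4 (Lamb3 and Lamc1) and 1 fell (Nid2), where 7.49% of all tested genes were called higher and 7.99% lower, 15.5% in all. Without WT L0 replicate 1 or without WT L0 replicate 2, 1 was called. In WT L8, 6 fell (Col4a1, Col18a1, Lamc1, Nid1, Nid2 and Agrn) and 0 rose, where 17.7% of all tested genes were called lower, 18.4% higher and 36.1% in either direction. Under alternatives other than leaving out 1 array, this count was 4 to 6. It was 4 with median scaling, where Col4a1 and Nid1 were not called. Of all 8891 tested genes, 2068 were called in WT L8 with median scaling, beside 3212 in the main fit. Between WT L4 and L8, 4 fell (Col18a1, Lamb3, Lamc1 and Agrn), with 8.86% of all genes called lower, 10.8% higher and 19.6% in either direction. Lamb3 was below background in WT L8. Its fitted change there, -0.83 ± 0.19, was -0.89 to -0.76 with 1 array left out. With an offset of 50 it was -0.45 and was not called (limma, adjusted p = 0.055). The median change of the 9 genes was -0.18 at L4 and -0.50 at L8, beside -0.01 and 0.00 over all tested genes.

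In YYFF cells the 9 genes split. At L4 against L0, 4 rose (Col4a1, Col4a2, Lamb3 and Lamc1) and 4 fell (Col4a5, Col18a1, Nid2 and Agrn), where 14.4% of all tested genes were called higher and 17.2% lower, 31.5% in all. At L8, 2 rose (Col4a1 and Lamc1) and the same 4 fell, with 17.1% of all genes called higher and 19.3% lower, 36.4% in all. Of all genes, 1.03% were called lower from L4 to L8, 0.405% higher and 1.44% in either direction. There only Nid2 was called, as 1 of the 9 basement membrane genes tested. That count was 2 without WT L4 replicate 1 or without WT L4 replicate 2, which enter through the shared estimate of the spread, and 0 with the 4 compared arrays alone. The 2 passage comparisons of a clone share its L0 arrays. The median of the 9 changes, 0.07 at L4 and -0.37 at L8, lay beside 0.02 and 0.03 over all genes and hides this split.

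**Figure D2:**
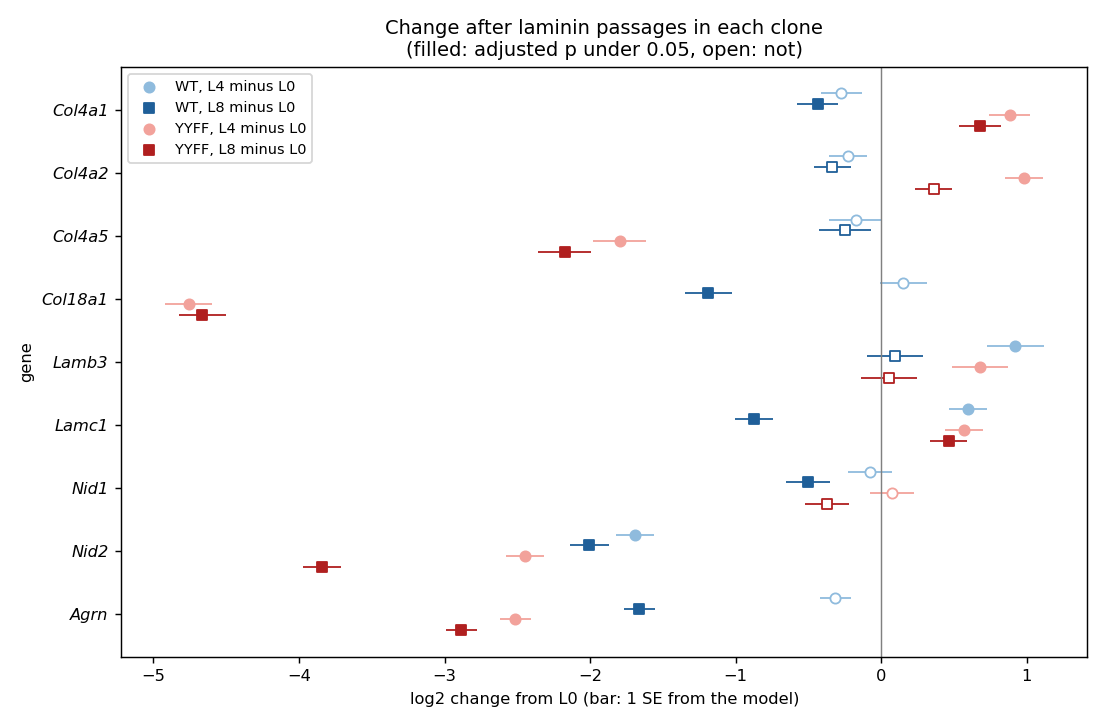
Log2 change from L0 (horizontal axis) of the 9 tested genes (vertical axis) after 4 and 8 laminin passages in each clone, with bars of 1 SE and filled points where the adjusted p from limma was under 0.05. Col18a1, Nid2 and Agrn lie far to the left in YYFF (-4.66, -3.84 and -2.88 at L8), while Col4a1 and Lamc1 lie right of 0 in YYFF and left of it in WT at L8.

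Set against WT, YYFF cells at L0 had 7 of the 9 genes higher (Col4a1, Col4a2, Col4a5, Lamb3, Nid1, Nid2 and Agrn) and 1 lower (Col18a1), where 14.7% of all tested genes were called higher and 12.2% lower, 27% in all. At L4, 5 were higher (Col4a1, Col4a2, Col4a5, Lamb3 and Nid1) and 2 lower (Col18a1 and Agrn), with 18.2% of all genes called higher and 19.7% lower, 37.9% in all. At L8, 6 were higher, Lamc1 having joined those 5, and 3 lower (Col18a1, Nid2 and Agrn), with 17.2% of all genes called higher and 19.8% lower, 37% in all. The median difference of the 9 genes was 1.07, 1.39 and 1.47 at L0, L4 and L8, beside -0.04, -0.02 and 0.01 over all genes. The difference between the clones in the L4 change was called for 6 of 9 genes, 2 upward in YYFF and 4 downward, with 10.3% of all genes called upward and 13.4% downward, 23.7% in all. That in the L8 change was called for 7 of 9, 3 upward and 4 downward, with 14.4% of all genes called upward and 17.5% downward, 31.8% in all.

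**Figure D3:**
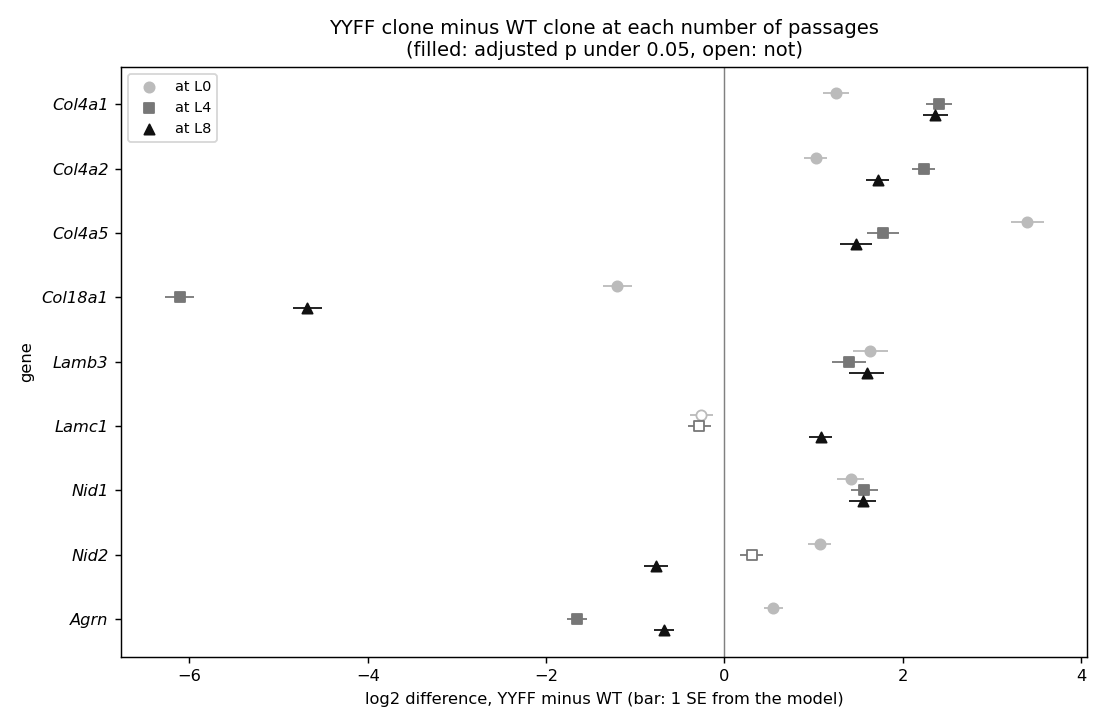
Log2 difference between the clones, YYFF minus WT (horizontal axis), for the 9 tested genes (vertical axis) at L0, L4 and L8, with bars of 1 SE and filled points where the adjusted p from limma was under 0.05. Nid1 keeps its distance at all 3 points, Col4a1 moves from 1.25 to 2.41, and Nid2 and Agrn cross from right to left of 0.

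Of 36 other basement membrane components, 29 had a probe and 11 were tested. In YYFF against WT, 6 were higher and 3 lower at L0, 7 and 2 at L4, and 4 and 3 at L8. Over all tested genes 14.7% were called higher and 12.2% lower at L0, 18.2% and 19.7% at L4, and 17.2% and 19.8% at L8. Lamb2, the laminin β chain of muscle and kidney basement membranes, was higher in YYFF by 0.76 ± 0.11 at L0 (limma, adjusted p = 0.000834), 0.97 ± 0.11 at L4 and 0.43 ± 0.11 at L8. Hspg2, which encodes perlecan, was higher by 0.53 ± 0.13 at L8 (limma, adjusted p = 0.01). Ntn4, a netrin that binds laminin γ chains, rose by 1.25 ± 0.19 in YYFF L4 (limma, adjusted p = 0.00116), and Fbln1, a fibulin, by 1.75 ± 0.16 (adjusted p = 3.99e-05). Smoc1, a calcium-binding matrix protein, was lower in YYFF at L4 (-3.43 ± 0.17, limma, adjusted p = 8.96e-07), and Sparc, a collagen-binding protein, was higher by 1.57 ± 0.14 at L0 (adjusted p = 6.71e-05). The median of the 11 differences was 0.45 at L0, 0.63 at L4 and 0.16 at L8, beside -0.04, -0.02 and 0.01 over all tested genes.

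Of 22 receptors that bind laminin or collagen IV, 18 were tested. In YYFF, 4 rose and 6 fell at L4, and 3 rose and 6 fell at L8, with medians of -0.01 and -0.27 beside 0.02 and 0.03 over all tested genes, of which 14.4% rose and 17.2% fell at L4 and 17.1% rose and 19.3% fell at L8. Itga7, the laminin-binding integrin α7 of muscle, was below background in YYFF L0 and at least 6.22-fold higher in YYFF L4 (limma, adjusted p = 7.91e-07) and at least 5.02-fold in L8. Itgb4, the β4 partner of α6 and a receptor for the laminin with the Lamb3 chain, was at least 3.50-fold lower in YYFF L4 (limma, adjusted p = 3.7e-05), whereas it rose by 1.08 ± 0.21 in WT L8 (adjusted p = 0.00372). In WT, Itgb1 itself fell by 0.53 at L4 (limma, adjusted p = 0.0426) and fell by 0.77 at L8 (adjusted p = 0.00358), and its YYFF changes were 0.05 ± 0.15 and -0.23 ± 0.15 (adjusted p = 0.821 and 0.273). The clone difference in its L8 change, 0.54 ± 0.21, did not pass the test (limma, adjusted p = 0.0802). Set against WT, Itgb1 was higher in YYFF by 0.56 ± 0.15 at L4 (limma, adjusted p = 0.0156) and by 0.52 ± 0.15 at L8 (adjusted p = 0.0216).

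Of 32 genes for collagen and laminin folding, modification and crosslinking, 26 were tested. In WT L8, 10 rose and 4 fell, and in YYFF L8, 4 rose and 8 fell, with medians of 0.26 and -0.12 beside 0.00 and 0.03 over all tested genes, of which 18.4% rose and 17.7% fell in WT L8 and 17.1% rose and 19.3% fell in YYFF L8. Lox, a lysyl oxidase that crosslinks collagen, rose in WT by 1.04 ± 0.10 at L4 (limma, adjusted p = 0.00023) and 1.92 ± 0.10 at L8 (adjusted p = 2.74e-06). Loxl4, of the same enzyme family, rose in YYFF by 1.64 ± 0.12 at L4 (limma, adjusted p = 9.3e-06). Serpinh1, the collagen chaperone of the endoplasmic reticulum, was lower in YYFF at L0 (-1.08 ± 0.17, limma, adjusted p = 0.00188), at L4 (-1.75 ± 0.17) and at L8 (-2.17 ± 0.17, adjusted p = 1.59e-05).

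Of 31 enzymes that cut basement membrane and their inhibitors, 23 were tested. In YYFF against WT, 4 were higher and 4 lower at L0, 4 and 5 at L4, and 7 and 5 at L8, with medians of -0.07, 0.03 and 0.09 beside -0.04, -0.02 and 0.01 over all tested genes. The shares of all tested genes called higher and lower there were 14.7% and 12.2% at L0, 18.2% and 19.7% at L4, and 17.2% and 19.8% at L8. Mmp13, a collagenase, rose in WT L4 by 2.98 ± 0.19 (limma, adjusted p = 1.54e-05) and was lower in WT L8 than in WT L0 (-1.88 ± 0.19, adjusted p = 9.75e-05). In YYFF L4 it was at least 5.58-fold lower than in YYFF L0 (limma, adjusted p = 5.59e-06). Mmp3, a stromelysin with laminin and type IV collagen among its substrates, was lower in the YYFF clone at L0 (-4.70 ± 0.16, limma, adjusted p = 1.43e-07). Adamts5, which cuts proteoglycans, was higher in YYFF by 1.43 ± 0.18 at L0, 2.72 ± 0.18 at L4 (limma, adjusted p = 5.17e-06) and 1.89 ± 0.18 at L8.

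**Figure D4:**
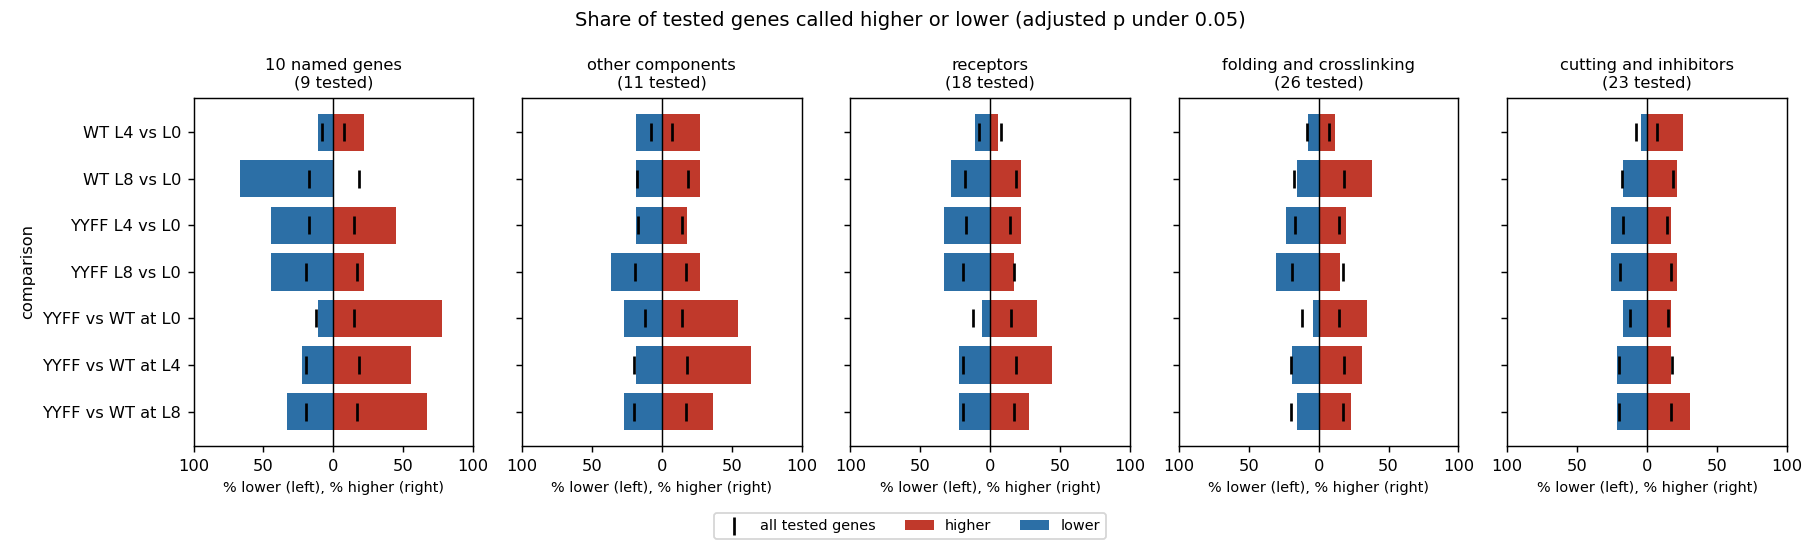
Share of tested genes called higher (red, to the right) or lower (blue, to the left) in percent (horizontal axis) in 7 comparisons (vertical axis), for the 10 named genes and 4 wider lists, with black ticks at the shares over all 8891 tested genes. Of the named genes 6 of 9 are lower in WT L8, where 17.7% of all genes are, and 7 of 9 are higher in YYFF at L0, where 14.7% are.

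The patterns most like the remaining genes over the 12 arrays were as follows. Col4a2 was most like Col4a1 (r = 0.982) and then Hoxb5 (r = 0.978), and Col4a1 was most like Galnt18 (r = 0.986) and Nrap (r = 0.984). Col4a5 was most like Lhx9 (r = 0.981), Nid1 most like Dok1 (r = 0.982), Lamb3 most like Hebp1 (r = 0.928) and Lamc1 most like Asap1 (r = 0.890). Lamc1 had the least close partner of the 9 genes. The arrays share their groups, so these values describe likeness over 6 group means more than over 12 independent cultures.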

How the data were processed

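RNA was hybridised to 12 Illumina bead arrays. The deposited raw table holds probe intensities (mean over beads, per the file headers) and detection p-values, and names no slide. The authors' processed intensities served as an alternative, although WT L0 replicate 2 is left as in the raw table there. The submitters' notes name limma, with no role or version, and no other software.

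Here intensities were background-corrected by normexp (controls inferred from detection p, offset 16), quantile-normalized and log2-transformed in limma 3.58.1 (R 4.3.3). Probes with detection p under 0.05 on at least 2 arrays were kept (12974), and the brightest per gene was tested. Symbols were updated through RefSeq GRCm38.p6. A model with 1 mean per group over 12 arrays (6 residual degrees of freedom, eBayes) gave 11 contrasts, adjusted over 8891 genes, and was tested on simulated data. The number of arrays limits the precision. The genes, lists and tests were chosen with earlier results of these data known. Of the wider lists, up to 4 genes per direction and comparison could be named, by size of change, and the text gives examples of these, along with the genes most alike in pattern to each member by Pearson r. An alternative with every detected probe in 1 fit was chosen after seeing the data.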

Additional observations from a re-analysis of the deposited data

Results flagged for a closer look

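The changes after laminin passages differed between the clones, by a limma interaction test adjusted over all tested genes, in 13 cases among the basement membrane genes, given here as the YYFF change minus the WT change in log2 units with 2 arrays a group. These were 6 of 9 tested genes for the L4 change and 7 of 9 for the L8 change. Of all tested genes, 23.7% were called for the L4 change and 31.8% for the L8 change. For the L4 change the difference was 1.15 for Col4a1 and 1.21 for Col4a2, so YYFF moved up relative to WT. It was -1.62 for Col4a5, -4.91 for Col18a1, -0.76 for Nid2 and -2.20 for Agrn. For the L8 change it was 1.11 for Col4a1, 0.69 for Col4a2 and 1.34 for Lamc1. It was -1.92 for Col4a5, -3.47 for Col18a1, -1.84 for Nid2 and -1.22 for Agrn. The values for Col4a5 rest on WT readings that were all below background, and those for Col18a1 on YYFF readings of which 0 of 2 at L4 and 1 of 2 at L8 were above it. The other detected Col18a1 probe, below background in all YYFF groups, gave -0.16 for the L4 change and 0.77 for the L8 change. Groups of 2 arrays are too small for a check of single outlying arrays.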

How the results depend on the processing

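The 65 called changes of the 9 tested genes were refitted under 23 alternatives, 12 of them leaving out 1 array. The stricter filter left Col4a5 and Lamb3, with 13 of these changes, untested. In all, 1429 of 1482 refits kept the call and direction, 53 lost the call and 0 reversed. The alternatives covered the background correction, its offset, the scaling, the authors' processed values, the filter on dim probes, the choice of probe, the arrays in the fit and the replicate numbers. Leaving out an array of a group not compared could not alter a log2 change, only its SE and p. The same held for another filter, the replicate number as a block and the compared arrays alone. Those refits could therefore lose a call but could not reverse a direction. Median scaling in place of quantile normalization lost 9 calls and moved the median of all genes by at most 0.06. Against L0, the lost calls were Lamc1 in WT L4, YYFF L4 and YYFF L8, Col4a1 and Nid1 in WT L8, and Lamb3 in YYFF L4. Between the clones they were Agrn at L0, Nid2 in the L4 change and Col4a2 in the L8 change. The count called in YYFF L8 against L4 was 1 in the report, where 128 of all genes were called. With the compared arrays alone it was 0, where 0 of all genes were called by limma. It was 2 with no background correction, with an offset of 50, with the authors' values and with a stricter filter. Col4a2 was the added gene. Of all genes, 139, 180, 119 and 167 (the last of 6840) were called in that order in this comparison. Leaving out 1 array gave 1 to 2 there (2 without WT L4 replicate 1 or 2), and 1 to 3 in WT L4 against L0. Of the 34 changes not called, 19 refits passed the test, 8 of them for Col4a2 in YYFF L8 against L0 and 6 for it in YYFF L8 against L4. Another 20 turned the sign, none of them called: with other processing, Lamb3 to 0.030 (clone difference at L4, offset 50) and -0.14 (YYFF L8 against L0, median scaling) and Lamc1 to 0.026 (clone difference at L4, median scaling). With 1 array left out, the ranges that crossed 0 were, in WT, -0.21 to 0.060 for Nid1 at L4 against L0, -0.26 to 0.046 for Col4a2 and -0.15 to 0.00098 for Col4a5 at L8 against L4. In YYFF they were -0.028 to 0.17 for Nid1 at L4, -0.15 to 0.25 for Lamb3 at L8, and, at L8 against L4, -0.42 to 0.0080 for Col4a1, -0.18 to 0.37 for Col18a1 and -0.26 to 0.054 for Lamc1. Between the clones they were -0.53 to 0.046 for Lamb3 and -0.10 to 0.046 for Lamc1 in the L4 change, and -0.24 to 0.16 for Lamb3 and -0.018 to 0.28 for Nid1 in the L8 change. The causes were not tested.

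Replicate numbers are shared between groups, but nothing says that a number marks a shared culture or day. Deviations of same-numbered arrays correlated at 0.02 to 0.35 over the 15 pairs of groups by the titles' numbers, 13 of them over 0.1, and at -0.35 to 0.23 by the descriptions' numbers. With the titles' replicate number as a block, 5 genes were called in WT L8 against L4 and 7 in YYFF L8 against L0, where Nid1 passed (limma, adjusted p = 0.0221 and 0.0224), and the other 9 counts did not move. Of all 8891 tested genes, 2044 and 3595 were called in those 2 comparisons with the block, beside 1745 and 3234 in the main fit. The slide as a block was not run, since the files name none. Probes near background limit Col4a5, Lamb3 and Lamb1, and Col18a1 and Nid2 in passaged YYFF cells.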
